A study of Mus musculus with 12 samples.

Results

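The Hox genes are homeobox genes that stand side by side in 4 clusters of the mouse genome, and 38 of their protein-coding members were taken by name from the 21853 protein-coding genes of the annotation. Of the members, 10 lie in the Hoxa cluster on chromosome 6, 10 in Hoxb on chromosome 11, 9 in Hoxc on chromosome 15 and 9 in Hoxd on chromosome 2. The choice used gene names only and no measured value, but it was made with earlier results of these data known. Hox proteins are transcription factors that give cells of the embryo their position along the body axis, and genes at one end of each cluster are switched on earlier and further forward than those at the other. Genes with the same number in different clusters are paralogues that arose by duplication of an ancestral cluster. Where Hox genes are silent, Polycomb complexes hold them under trimethylated lysine 27 of histone H3 (H3K27me3), and where they are active, trithorax-group complexes place trimethylated lysine 4 (H3K4me3) at their promoters.

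The libraries were made from mouse small intestine, split into crypts, which hold the stem and dividing cells and were released with EDTA, and villi, which hold the differentiated cells and were scraped off with coverslips. Genotype, strain, sex, age and the number of animals are not given in the sources used here. Chromatin was immunoprecipitated for H3K27me3, H3K4me3, H3K4me1 (a mark of enhancers and promoter flanks), H3K9me3 (a mark of constitutive heterochromatin) and H3K9me2, with 1 library per compartment and mark. The study asked where these modifications lie along the genome in a tissue whose villi carry cleaved H3 tails, and of its 12 libraries the 10 peak lists were used, without the 2 inputs.

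With 1 library per compartment and mark, no test between crypts and villi was made, and each difference below is one between 2 peak lists. A gene was called marked where a peak overlapped 1 of its start sites, widened by 1 kb on each side, by at least 1 bp. Peak lists hold no read counts, so depth is unknown, and a missing peak may be signal under the authors' threshold or a called peak that was later removed, which cannot be told apart. The H3K27me3 list held 7611 peaks in crypts and 13797 in villi, and H3K4me3 16489 and 16977, so the H3K27me3 lists were unequal to begin with. Of the epithelial marker genes, 8 of 8 had H3K4me3 and 0 had H3K27me3 in either compartment. By H3K4me3 calls, markers of the compartments barely separated them, with H3K4me3 at 7 of 7 villi markers in both and at 6 of 6 crypts markers in crypts and 5 of 6 in villi, where Olfm4 had none. H3K27me3 covered more of 3 crypts markers in villi: Ascl2 (17.0% in crypts, 83.9% in villi), Lgr5 (5.99% and 17.7%) and Olfm4 (0% and 5.01%). It covered 0% of Axin2, Sox9 and Mki67 in both. Markers of blood cells differed, with H3K4me3 at 0 of 8 in crypts and at 5 of 8 in villi (Ptprc, Cd3e, Cd3g, Cd8a and Gzma), and for mesenchyme and muscle the count was 3 of 10 in crypts and 4 of 10 in villi. The part of such cells in the Hox peaks was not tested, and in bulk chromatin fewer marked cells cannot be told apart from less mark per cell.

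The stretches of DNA on which the Hox results turn are given first. Of the 38 members, 22 had a promoter of 250 bases before to 50 after the start site in the RefSeq table for GRCm38.p6, and 5 of these are shown as examples: Hoxa3 and Hoxd1 had H3K4me3 in villi alone, the Hoxd4 promoter was under H3K27me3 in villi alone, that of Hoxa13 was outside it in both compartments and Hoxa5 had both marks in both. The gene with H3K4me3 in crypts alone, Hoxb8, is described below without its sequence. Capitals mark CpG dinucleotides, the sites that CpG islands are rich in, and each sequence runs 5′ to 3′ along the gene's own strand.
Hoxa3: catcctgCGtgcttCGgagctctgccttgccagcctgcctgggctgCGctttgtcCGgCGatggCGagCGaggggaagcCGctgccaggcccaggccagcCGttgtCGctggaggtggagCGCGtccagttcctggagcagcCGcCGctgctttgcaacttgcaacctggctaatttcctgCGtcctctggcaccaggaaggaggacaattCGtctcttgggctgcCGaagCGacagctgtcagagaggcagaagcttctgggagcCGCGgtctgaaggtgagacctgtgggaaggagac
Hoxd1: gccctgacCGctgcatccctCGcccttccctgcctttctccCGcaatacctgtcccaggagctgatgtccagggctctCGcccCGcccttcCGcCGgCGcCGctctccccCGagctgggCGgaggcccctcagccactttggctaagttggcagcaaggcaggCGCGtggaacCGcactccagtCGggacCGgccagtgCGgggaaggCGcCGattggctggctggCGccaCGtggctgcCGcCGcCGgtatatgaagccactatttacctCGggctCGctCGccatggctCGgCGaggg
Hoxd4: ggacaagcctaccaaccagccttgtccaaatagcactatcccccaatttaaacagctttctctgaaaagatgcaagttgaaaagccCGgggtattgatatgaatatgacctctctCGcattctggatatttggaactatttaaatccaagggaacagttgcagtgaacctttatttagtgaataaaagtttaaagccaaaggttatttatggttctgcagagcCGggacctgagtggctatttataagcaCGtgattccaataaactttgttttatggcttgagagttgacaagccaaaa
Hoxa13: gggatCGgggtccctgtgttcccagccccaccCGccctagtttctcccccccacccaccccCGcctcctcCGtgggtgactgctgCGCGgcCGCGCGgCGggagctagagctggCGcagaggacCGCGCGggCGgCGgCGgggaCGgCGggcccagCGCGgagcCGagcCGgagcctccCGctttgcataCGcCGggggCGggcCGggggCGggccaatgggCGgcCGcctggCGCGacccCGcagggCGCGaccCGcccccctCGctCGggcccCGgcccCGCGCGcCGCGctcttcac
Hoxa5: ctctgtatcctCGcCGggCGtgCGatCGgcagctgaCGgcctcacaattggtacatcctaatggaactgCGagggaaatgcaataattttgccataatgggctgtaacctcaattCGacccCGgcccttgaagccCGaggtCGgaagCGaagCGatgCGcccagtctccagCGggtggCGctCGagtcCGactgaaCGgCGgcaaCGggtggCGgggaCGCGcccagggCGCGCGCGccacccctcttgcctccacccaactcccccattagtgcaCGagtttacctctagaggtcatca

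The Hoxa3 sequence lies at chr6:52213018-52213317 on the minus strand and holds 20 CpGs, against a median of 7 over the 32851 promoters of the table. All 300 of its bases were under H3K27me3 in both compartments, and under H3K4me3 in villi but not in crypts. Hoxd1, at chr2:74762730-74763029 on the plus strand with 29 CpGs, was likewise wholly under H3K27me3, and 241 of its bases were under H3K4me3 in villi and 0 in crypts. Hoxd4, at chr2:74721728-74722027 on the plus strand, had 4 CpGs, fewer than the median, and none of its bases was under H3K27me3 in crypts while all 300 were in villi. In contrast, Hoxa13, at chr6:52260831-52261130 on the minus strand with 45 CpGs, was free of H3K27me3, H3K4me3 and H3K4me1 in both, although a H3K27me3 peak lay within 1 kb of its start sites. Hoxa5, at chr6:52204538-52204837 on the minus strand with 29 CpGs, stood under H3K27me3 throughout, with 134 bases under H3K4me3 in crypts and 176 in villi.

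H3K27me3 was found at a start site of 38 of 38 Hox genes in crypts and of 38 of 38 in villi. Of all protein-coding genes, 13.1% had such a peak in crypts and 16.1% in villi. The members had 61 start sites, none within 2 kb of that of another member. The calls of neighbouring genes were not independent all the same, since 1 broad peak could mark several: the widest in villi called 9 Hoxc genes, and the widest in crypts 6 Hoxc genes. Of the start sites, 53 lay inside a H3K27me3 peak in crypts and 54 in villi, and 60 and 61 had one within 1 kb. The exception in crypts was the upstream start site of Hoxd4, described below with its gap. None of the 38 genes had H3K9me3 at a start site in either compartment, where the share of all genes was 0.380% in crypts and 0.311% in villi. H3K9me2, for which the lists held 6 and 3 peaks, touched 0 of 38 members, against 0.00915% of all genes in each compartment. No H3K9me3 peak fell anywhere in the 4 clusters.

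**Figure D1:**
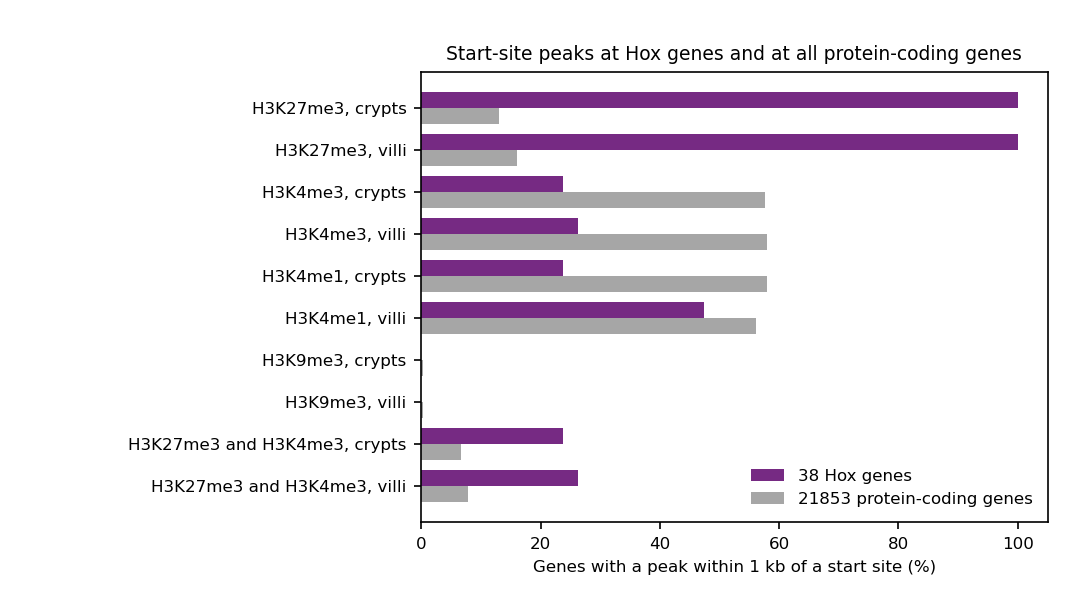
Share of genes (horizontal axis, percent) with a peak within 1 kb of a start site, for the 38 Hox genes (purple) and all 21853 protein-coding genes (grey), by mark and compartment. H3K27me3 is called at 100% of the Hox genes in both compartments, against 13.1% and 16.1% of all genes, and H3K4me3 reaches 23.7% and 26.3% of them, against 57.7% and 57.9%.

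The mark also ran over the bodies of the genes and not only their starts. Peaks of H3K27me3 took up 100% of the median Hox gene in both compartments, while for all genes with a start-site peak the median was 7.31% in crypts and 10.4% in villi. At least 90% of the gene was covered for 29 of 38 members in crypts and 29 in villi, against 1.14% and 1.57% of all genes. Wholly covered were 21 members in crypts and 26 in villi. The share of a gene under peaks depends on its length, which was not matched between the members and other genes. Since the annotated gene of Hoxa3 spans Hoxa4, Hoxa5 and Hoxa6, that of Hoxc5 spans other Hoxc genes, and Hoxd3 and Hoxd4 share much of theirs, these values are not independent of each other.

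Coverage was lowest for Hoxb5, a gene with roles in neural crest cells that form the enteric nervous system, at 48.0% in crypts, and this gene was covered over 100% in villi. Next in crypts came Hoxd4 at 60.2%, Hoxb3 at 64.3%, Hoxb4 at 66.3%, Hoxa4 at 72.8%, Hoxd3 at 73.4%, Hoxd8 at 76.3%, Hoxa13 at 79.0% and Hoxa3 at 87.8%. In villi the lowest was Hoxb4 at 73.9%, followed by Hoxa4 at 74.5%, Hoxd8 at 74.9%, Hoxd4 at 76.1% and Hoxa13 at 77.8%. These 5 genes were also among the least covered in crypts, and Hoxb5 and Hoxb3, at 84.3% in villi, differed most between them. Coverage was lower in villi than in crypts for Hoxb8 (100% in crypts, 85.9% in villi), Hoxd10 (100% and 87.5%), Hoxd8 and Hoxa13.

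**Figure D2:**
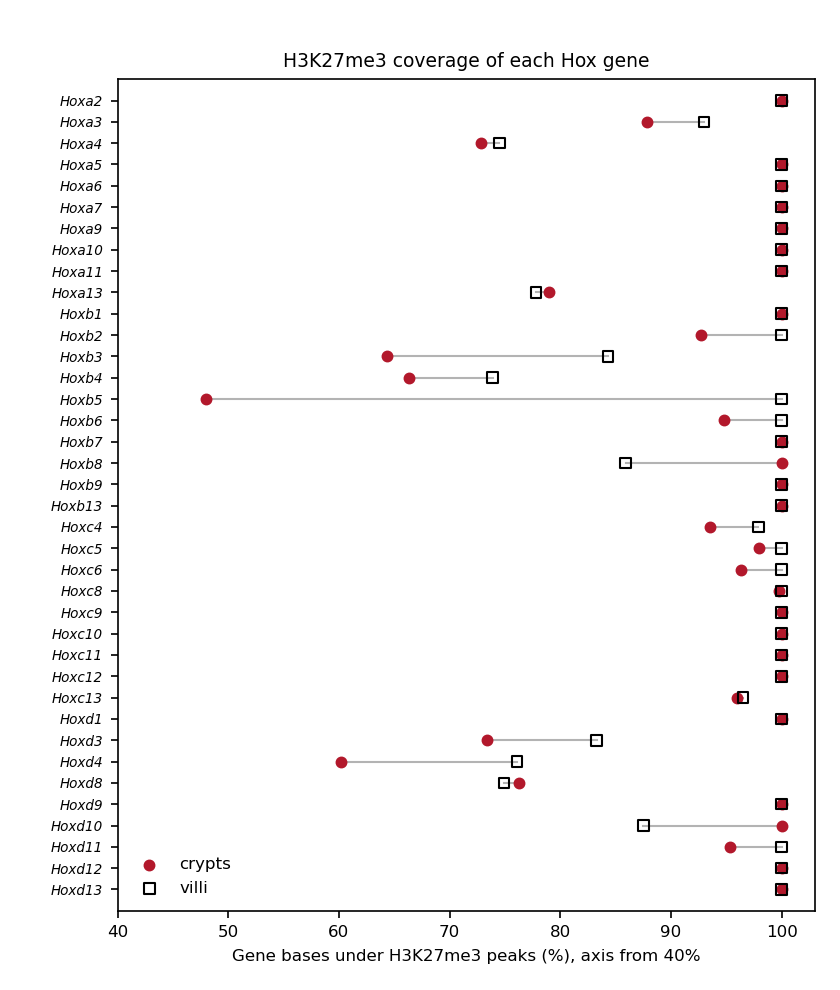
Percentage of each Hox gene's bases under H3K27me3 peaks (horizontal axis, starting at 40%), in crypts (red circles) and villi (open squares), with genes in rows by cluster and paralogue number. Hoxb5 goes from 48.0% to 100%, Hoxb3 from 64.3% to 84.3% and Hoxd4 from 60.2% to 76.1%, while most other genes sit at or near 100% in both.

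H3K4me3 was present at a start site of 9 Hox genes in crypts (57.7% of all genes were called) and of 10 in villi (57.9%), and each of these genes also carried H3K27me3. Genes with both marks made up 6.59% of all genes in crypts and 7.87% in villi. The remaining 29 and 28 members had H3K27me3 without H3K4me3, a state found at 6.49% and 8.21% of all genes. In crypts the doubly marked genes were Hoxa4, Hoxa5, Hoxa7, Hoxb4, Hoxb6, Hoxb7, Hoxb8, Hoxb9 and Hoxd3. In villi they were Hoxa3, Hoxa4, Hoxa5, Hoxa7, Hoxb4, Hoxb6, Hoxb7, Hoxb9, Hoxd1 and Hoxd3. Both marks on the same chromatin cannot be told apart here from a mixture of cells or alleles with 1 mark each.

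Of the genes with both marks, 7 of 9 in crypts and 6 of 10 in villi sat in the middle of the clusters. Among the central genes, of paralogue groups 4 to 8, 7 of 15 had H3K4me3 in crypts and 6 of 15 in villi. Of the anterior genes, of groups 1 to 3, 1 of 7 had it in crypts and 3 of 7 in villi, and of the posterior genes, of groups 9 to 13, 1 of 16 in each, Hoxb9. None of the 12 members of groups 10 to 13, which pattern the limbs, the urogenital tract and the tail end of the body, had a H3K4me3 peak at a start site in either compartment. Both members of group 7, Hoxa7 and Hoxb7, had it in both. By cluster, the counts were 3 in Hoxa, 5 in Hoxb, 0 in Hoxc and 1 in Hoxd in crypts, and 4, 4, 0 and 2 in villi.

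**Figure D3:**
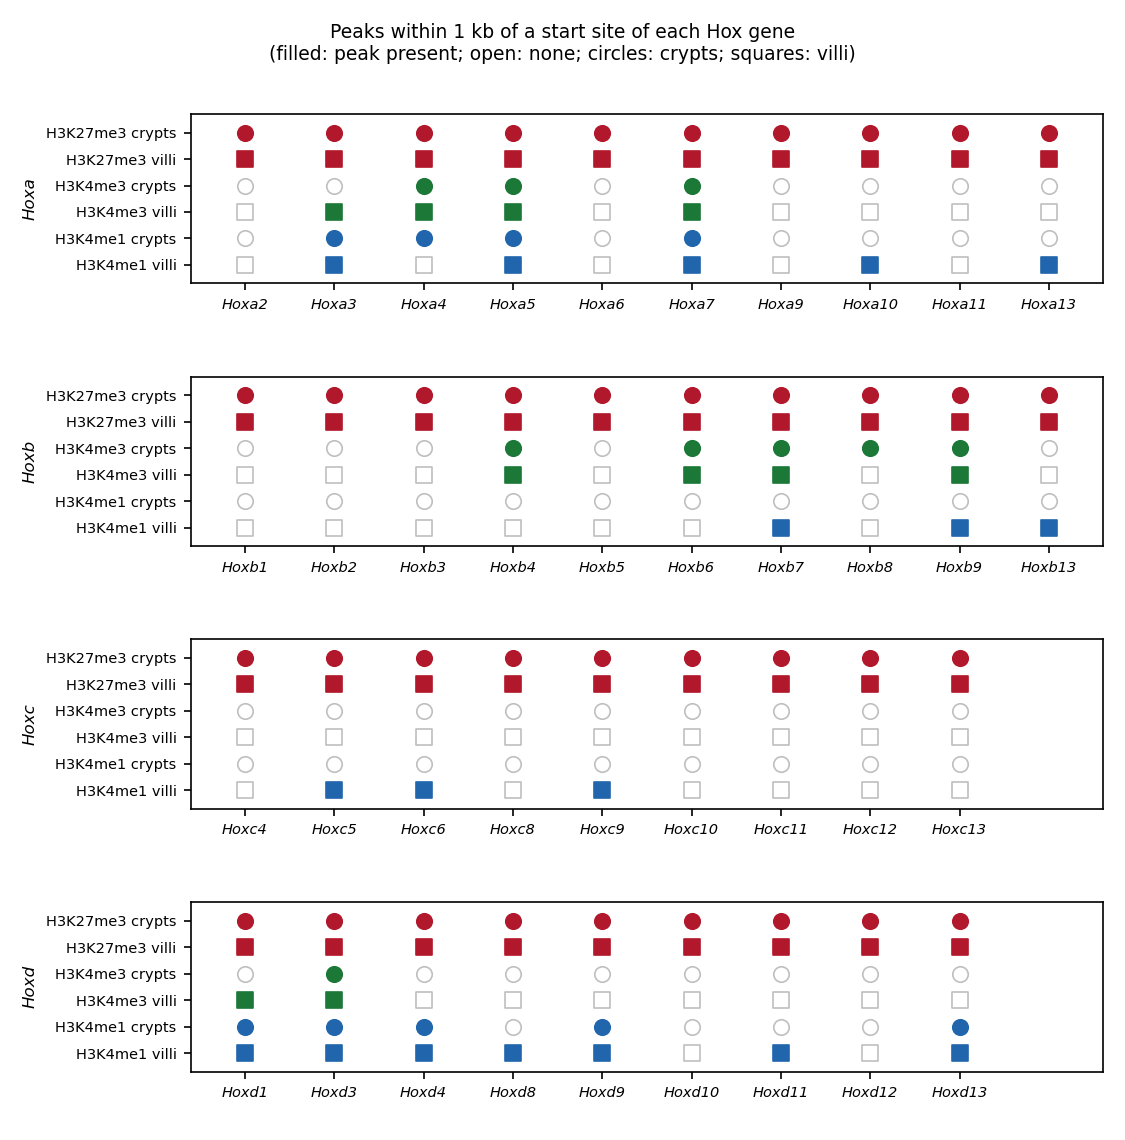
Peaks of H3K27me3 (red), H3K4me3 (green) and H3K4me1 (blue) within 1 kb of a start site of each Hox gene, in crypts (circles) and villi (squares), with filled symbols for a peak and open symbols for none, and genes from left to right by paralogue number. The H3K27me3 rows are filled for all 38 genes, the H3K4me3 rows mainly for numbers 3 to 9 of Hoxa and Hoxb, and the H3K4me3 rows of Hoxc are empty.

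These H3K4me3 peaks ranked low in their lists. The score of a peak ranks the peaks within a list. It was taken as the −log10 of a p-value, since the methods give a p-value cut-off and the lowest score, 10.0, lies at it. The 13 H3K4me3 peaks of the clusters in crypts and the 15 in villi all lay outside the top 50% of their lists by score, the best at rank 9191 of 16489 and 10093 of 16977. Both of these were the peak just upstream of Hoxa4, with scores of 134 in crypts and 80.6 in villi. Their median width was 1065 bp in crypts, where the list had 1584 bp, and 850 bp in villi, where it had 1498 bp. The widest in both was the Hoxb6 peak, at 3296 and 3529 bp. With the top 50% of each list by score, 0 of 38 members had H3K4me3 in either compartment.

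H3K4me3 differed between the compartments at 3 genes. H3K4me3 in villi alone was found at 1.27% of all genes and in crypts alone at 1.06%. Hoxa3, needed for the thymus and parathyroid glands, had it in villi alone, as a peak at chr6:52212859-52213361 with a score of 10.2, ranked 16830 of 16977. This is close to the lowest score of the list, 10.0, and the crypts list had no peak there. Hoxd1, which shapes the wiring of pain-sensing neurons, had it in villi alone too, at chr2:74762789-74763373 with a score of 14.5 and rank 15440. Both genes had H3K4me1 over these starts and H3K27me3 over 100% of the window around them in both compartments.

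Hoxb8, a gene of the central nervous system and of myeloid progenitors, had H3K4me3 in crypts alone, at chr11:96282858-96283851 with a score of 15.4. A peak further into the gene, at chr11:96284251-96285216 in crypts and chr11:96284243-96285553 in villi, was found in both, with scores of 13.6 and 14.0. It lay over 1 kb from the start sites, and with a window of 2 kb Hoxb8 was called in both compartments. The place of the crypts peak coincided in part with a H3K27me3 gap in villi, of 471 bp at chr11:96283674-96284144. All 3 differences rested on peaks of low rank.

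H3K4me1 was the mark whose count moved most between the lists. It was present at a start site of 9 Hox genes in crypts (57.9% of all genes) and of 18 in villi (56.1%). In crypts these were Hoxa3, Hoxa4, Hoxa5 and Hoxa7 and, in Hoxd, Hoxd1, Hoxd3, Hoxd4, Hoxd9 and Hoxd13, while Hoxb and Hoxc had 0. H3K4me1 in villi alone was found at 10 members, against 3.95% of all genes: Hoxa10, Hoxa13, Hoxb7, Hoxb9, Hoxb13, Hoxc5, Hoxc6, Hoxc9, Hoxd8 and Hoxd11. Hoxa4 alone had it in crypts only, against 5.69% of all genes. The posterior genes went from 2 of 16 with the mark in crypts to 8 of 16 in villi, the central from 4 to 7 of 15, and the anterior stayed at 3 of 7. The scores of the peaks at the 10 genes ran from 10.6 at Hoxc5 to 20.8 at Hoxc6, and only Hoxc6 remained among them with the top 50% of the villi list. In the clusters the H3K4me1 peaks rose in number from 23 in crypts to 37 in villi, and 20 in each overlapped a peak of the other, against lists of 54642 and 55341 peaks. Peak counts do not measure the amount of a mark. In spike-in normalized signal, the paper reports a strong decrease in villi of the marks near the N-terminus, with H3K4me1 among those shown.

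Along the clusters, H3K27me3 formed some of the broadest peaks of the genome. In crypts the widest of all 7611 peaks, at 72697 bp (chr15:102921408-102994104), ran from Hoxc13 to Hoxc8 and held Hoxc9, Hoxc10, Hoxc11 and Hoxc12 whole. The second widest, at 56472 bp (chr6:52198697-52255168), held Hoxa5, Hoxa6, Hoxa7, Hoxa9, Hoxa10 and Hoxa11. In villi the widest of 13797 peaks, at 110743 bp (chr15:102921373-103032115), joined what were 4 peaks in crypts and held 7 Hoxc genes whole. A 53982 bp peak over the same 6 Hoxa genes was the second in villi, a 40793 bp peak over Hoxd11, Hoxd12 and Hoxd13 the third, and a 35724 bp peak that held Hoxb9 the sixth.

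The spans from the first to the last member added up to 484988 bp. H3K27me3 covered 84.0% of it in crypts, in 54 peaks, and 92.0% in villi, in 43 peaks. Of the bases, 6643 were covered in crypts alone and 45193 in villi alone. The Jaccard index, the bases shared by both lists over those in either, was 0.886 for H3K27me3 in the clusters and 0.499 over the genome. For H3K4me3 the order was the other way, with 0.579 in the clusters and 0.795 over the genome, and H3K4me1 gave 0.455 and 0.642. With the top 50% of each list by score, the cover was 79.8% in crypts and 90.1% in villi. The part of the unequal list sizes in the difference was not tested.

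**Figure D4:**
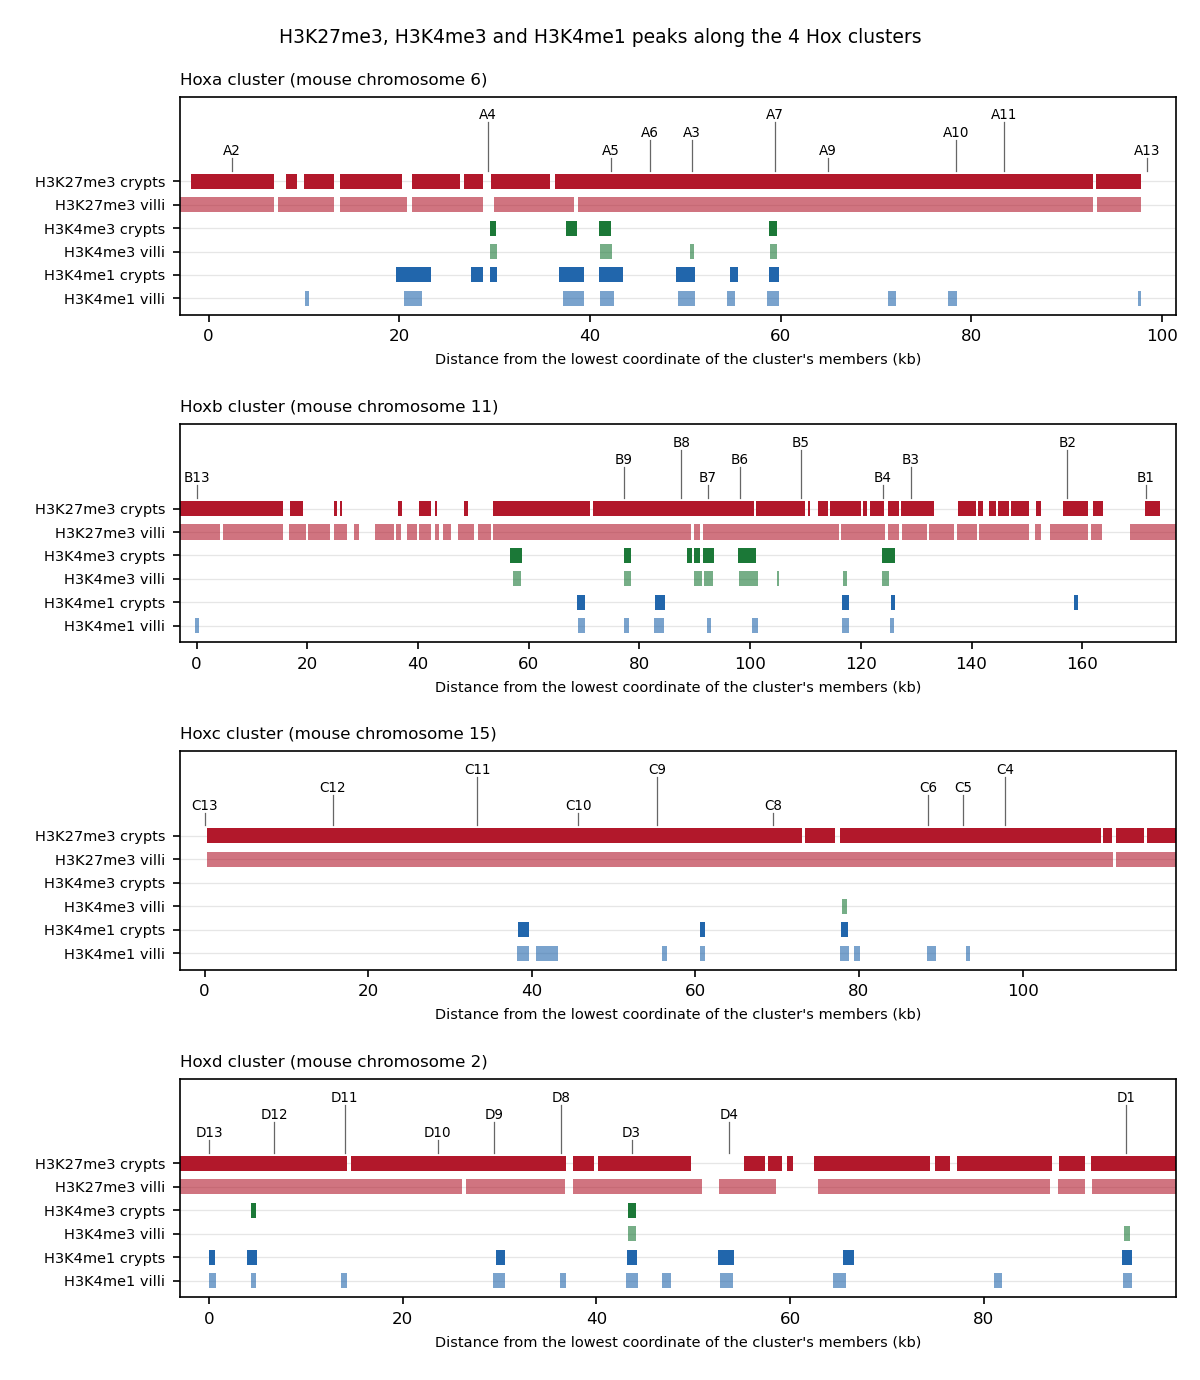
Peaks of H3K27me3 (red), H3K4me3 (green) and H3K4me1 (blue) along each Hox cluster in crypts (dark) and villi (light), against the distance in kb from the lowest coordinate of the cluster's members. Short lines mark the most upstream start site of each gene, named by its letter and number. Hoxc is under 2 H3K27me3 peaks in villi, 1 of them 110743 bp long, Hoxb is broken into 27 peaks in each compartment, and the H3K4me3 peaks lie mostly under H3K27me3.

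The 4 clusters differed in how closed the H3K27me3 cover was. Hoxc was covered over 97.9% in crypts and 99.4% in villi, Hoxa over 93.5% and 95.8%, Hoxd over 86.9% and 90.9%, and Hoxb over 67.9% and 85.5%. Hoxb includes a stretch of 74009 bp without a member between Hoxb13 and Hoxb9, which was covered over 57.9% in crypts and 82.5% in villi, and the part from Hoxb9 to Hoxb1 was covered over 74.5% and 87.3%. With that stretch set aside, Hoxb was still the least covered of the 4 clusters in each compartment.

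A gap is a stretch of a span with no H3K27me3 peak. Gaps that reached the end of a span, at Hoxa13 and Hoxc13, were cut there and counted only up to that end. The spans held 52 gaps in crypts and 41 in villi, of which 16 and 11 were 1 kb or longer, with median lengths of 627 and 592 bp. In all, 77436 bp lay in gaps in crypts and 38886 bp in villi. Of the crypts gaps, 23 were wholly under H3K27me3 in villi, and of the villi gaps 7 were wholly under it in crypts. No gap of 1 kb or more was found in Hoxc in either compartment.

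In Hoxb the gaps were both longest and most numerous, 26 in each compartment. The longest in crypts, at 10099 bp (chr11:96220662-96230760), lay between Hoxb13 and Hoxb9, where villi had 3 shorter gaps. Hoxb1, a hindbrain gene at the anterior end, stood behind a crypts gap of 7417 bp (chr11:96358158-96365574), which left 58.9% of its start-site window covered. In villi the gap there ended at 96362923 and the whole window was covered. The annotated gene of Hoxb2, another hindbrain gene, began inside a crypts gap of 3876 bp (chr11:96346902-96350777) that also took the end of Hoxb3, and 92.7% of its gene was covered in crypts and 100% in villi. In villi that gap was 1592 bp and ended before Hoxb2.

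Hoxb3 was touched by 7 gaps in crypts and 5 in villi. One of 4317 bp in crypts (chr11:96327469-96331785) held the middle of its 3 start sites, whose window was covered over 20.3% in crypts and 100% in villi. Its first start site was covered over 100% of the window in both. Hoxb5 lost its cover in crypts to gaps of 472 and 1474 bp, the longer at chr11:96305146-96306619 over the end of the gene, and neither was present in villi. At the other end of the cluster, Hoxb13, a gene of the hindgut and tail, lay wholly inside a single H3K27me3 peak in both compartments, whose width was 22885 bp in crypts and 10649 in villi.

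Hoxd4, a gene of the neck vertebrae, had 2 start sites that went opposite ways. In crypts the upstream site, at position 74721978 of chromosome 2, lay in a gap of 5469 bp (chr2:74718088-74723556), with 0% of its window under H3K27me3 and 78.7% under H3K4me1. In villi that window was covered over 100% by H3K27me3 and over 64.4% by H3K4me1. The downstream site, at 74727074, was covered over 74.4% in crypts and 36.1% in villi, where it lay in a gap of 4349 bp (chr2:74726796-74731144). No H3K4me3 peak fell in either gap. In crypts the call of H3K27me3 at Hoxd4 thus rested on the downstream site, and it was lost there with only the most upstream site or with the top 50% of the list. The RefSeq promoter shown above for Hoxd4 is that of the upstream site.

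Hoxd3, which overlaps Hoxd4, kept H3K4me3 and H3K27me3 at its first start site in both, with 39.6% and 42.5% of the window under H3K4me3. At the anterior end, Hoxd1 lay wholly inside a H3K27me3 peak in both, 9579 bp long in crypts and 11323 in villi. At the posterior end, Hoxd13, which shapes the digits, was inside the 26570 bp peak in crypts and the 40793 bp peak in villi.

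Within the Hoxa span, the gaps of 1 kb or more touched Hoxa3 and Hoxa4. In crypts, 2 gaps of 1261 and 1070 bp lay inside the annotated Hoxa3 gene, and the second of these (chr6:52182699-52183768) was under H3K4me1 over 100% of its bases. The villi gap at the same place was 523 bp and also under H3K4me1 over 100%. Hoxa4 began inside a gap in both compartments, which measured 869 bp in crypts (chr6:52191188-52192056) and 1150 in villi (chr6:52191223-52192372). Its H3K4me3 peak, the highest-scoring of the clusters, overlapped this gap over 20.5% of the gap's bases in crypts and 38.2% in villi. H3K4me1 covered 56.2% of the Hoxa4 window in crypts and 0% in villi. With a window of 500 bp, H3K27me3 was not called at Hoxa4 in villi. Hoxa2, a gene of the hindbrain and pharyngeal arches at the anterior end of the span, was wholly covered by H3K27me3 with no other mark at its start in either compartment.

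The posterior ends of Hoxa and Hoxc both opened at a start site. Both gaps ran on past the end of the span, where they were cut, so their full lengths are not given. Hoxa13, a gene of the hindgut, limbs and urogenital tract, had its 3 start sites outside H3K27me3, with 51.7% of each window covered in crypts and 48.0% in villi. Hoxc13, a gene of hair and nails, had 74.0% of its window covered in crypts and 77.6% in villi, with the first 305 and 270 bp of the gene uncovered. Hoxc4, at the anterior end of Hoxc, was covered over 93.5% of the gene in crypts and 97.9% in villi, with both start-site windows at 100%.

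H3K4me3 covered 1.66% of the gap bases of the 4 clusters in crypts and 2.86% in villi, against 4.11% and 3.52% of the bases under H3K27me3. The clusters differed in this, and most of the gap bases were those of Hoxb. In Hoxa the gap bases had 2.77% in crypts and 10.5% in villi, against 4.01% and 2.88% of the covered bases. These Hoxa values come from the Hoxa4 gap alone and moved with the peaks used, to 0% in crypts and 23.6% in villi with peaks under 1 kb apart merged and to 0% in both with the top 50% of each list. In Hoxb the gap bases had 1.99% and 2.66%, against 9.98% and 7.39% of the covered bases. Without the stretch from Hoxb13 to Hoxb9, which holds no other member, the Hoxb values were 4.49% and 5.46% of the gap bases and 13.3% and 11.1% of the covered. In Hoxc and Hoxd H3K4me3 lay over 0% of the gap bases in both compartments. Of the bases under H3K4me3, 92.9% in crypts and 93.4% in villi were under H3K27me3 as well. Each of the 13 and 15 H3K4me3 peaks touched H3K27me3, and 10 and 12 lay wholly inside it. Of the gaps, 3 in each compartment were touched by H3K4me3. Both compartments had the Hoxa4 gap and a gap in Hoxb4, a gene known for expanding blood stem cells, 716 bp long in crypts and 425 in villi, each under H3K4me3 over 100% of its bases. The third was at Hoxb6 in crypts, 475 bp with 82.5% under H3K4me3 and closed in villi, and at the end of Hoxb8 in villi, 551 bp with 45.0%, where crypts had no gap.

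The gaps varied widely in sequence. The compartments had 35 gap stretches in common, 32243 bp in all. Of these, 7 had at least 60% G and C bases, and 4 of the 7 held a member start site, of Hoxa4, Hoxa13, Hoxc13 and Hoxd8, while 0 of the other 28 did. Within the spans, the 7 had 66.4% to 78.3% G and C, lengths of 270 to 834 bp and 0% to 24.8% repeat-masked bases. Of the Hoxa13 and Hoxc13 gaps only the part inside the span was measured. The Hoxb4 gap was another of the 7, with 67.5% G and C. The other 28 ranged from 28.7% to 57.9% G and C and from 0% to 99.4% masked bases, with medians of 43.7% and 48.6%, 13 of them were masked over at least 50%, and 13 lay between Hoxb13 and Hoxb9. Among 743 tiles of 500 bp wholly under H3K27me3 in both compartments, 8.61% reached 60% G and C and 1.35% were masked over at least 50%. Read coverage in G and C rich or repeated sequence was not tested.

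**Figure D5:**
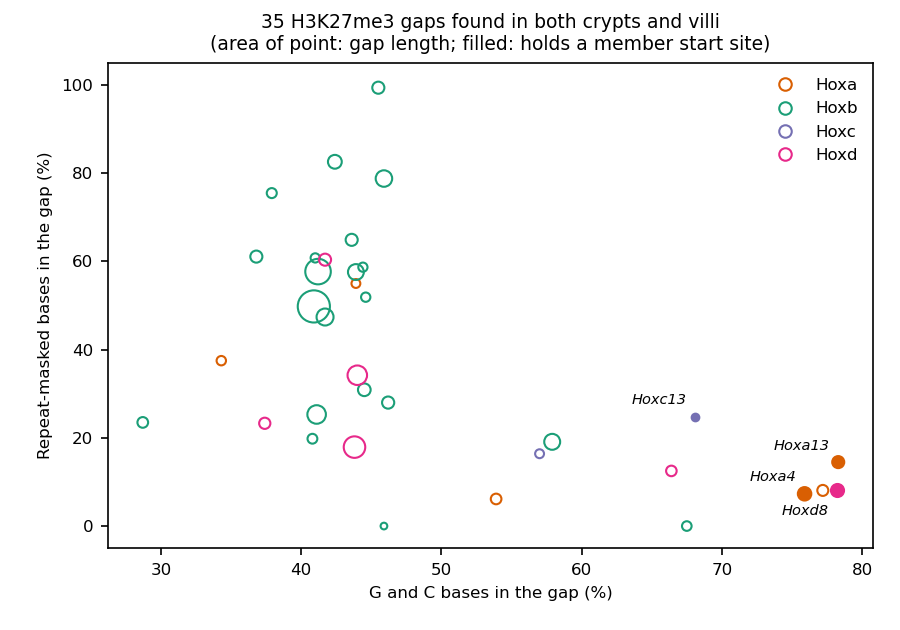
The 35 H3K27me3 gaps common to crypts and villi, by their G and C content (horizontal axis, percent) and share of repeat-masked bases (vertical axis, percent), coloured by cluster, with point area in proportion to length within the span. Filled points, at Hoxa4, Hoxa13, Hoxc13 and Hoxd8, hold a member start site and all lie above 60% G and C.

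CpG content was measured over the window of 1 kb on each side of the most upstream start site. Its median was 4.40 CpGs per 100 bp over the 38 members, 3.10 over all protein-coding genes and 4.50 over those with H3K27me3 in crypts. Members with H3K4me3 in either compartment had a median of 4.70 (11 genes, 2.30 to 8.65) and those without it 4.30 (27 genes, 1.15 to 9.70), so the ranges overlapped almost wholly. The highest values were those of Hoxa13 at 9.70, Hoxd11 at 9.50, Hoxd8 at 8.70 and Hoxa4 at 8.65, and 3 of these 4 genes had a G and C rich gap at their start. By cluster the medians were 7.15 in Hoxd, 4.40 in Hoxc, 4.02 in Hoxa and 3.25 in Hoxb.

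The RNA genes inside the spans that code for no protein were under the same cover. Of 17 long non-coding RNA genes, 17 had H3K27me3 at a start in both compartments, against 6.91% of all 10155 such genes of the annotation in crypts and 8.98% in villi. H3K4me3 was found at 3 in each, against 20.0% and 20.2%: Gm53 and Hoxd3os1 in both, Hoxaas3 in crypts alone and Haglr in villi alone. Hotair, transcribed within Hoxc, was covered over 100% in both with no H3K4me3. All 7 microRNA genes had H3K27me3 in both, against 4.81% and 6.58% of all 2202 microRNA genes (H3K4me3 was found at 11.5% and 11.8% of all). H3K4me3 was called within 1 kb at 0 in crypts and 1 in villi, Mir10a. This call rests on the edge of the window, since the Hoxb4 peak was present in both compartments, at chr11:96318179-96320480 in crypts and chr11:96318146-96319393 in villi, and only the latter reached it. Among these microRNAs 2 seeds, the bases 2 to 8 that pair with target RNAs, recur in different clusters, which is why they are shown, with the seed in capitals.
mmu-miR-10a-5p: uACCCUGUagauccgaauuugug
mmu-miR-10b-5p: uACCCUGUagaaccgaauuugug
mmu-miR-196a-5p: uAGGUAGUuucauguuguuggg
mmu-miR-196b-5p: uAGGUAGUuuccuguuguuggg

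The mature miR-10a lies upstream of Hoxb4 at chr11:96317186-96317208, and miR-10b lies within Hoxd4 at chr2:74726074-74726096. The miR-196a genes lie in Hoxb at chr11:96265187-96265208 and in Hoxc at chr15:102973365-102973386, and miR-196b lies in Hoxa at chr6:52230129-52230150. Each of these 5 was inside a H3K27me3 peak in both compartments. The peak over miR-10b was 1455 bp in crypts, between gaps, and 5821 bp in villi, while that over miR-196b was the 56472 bp peak in crypts and the 53982 bp peak in villi.

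The cofactors of the Hox proteins and the caudal genes Cdx1 and Cdx2 had H3K4me3, while most of the other homeobox relatives had H3K27me3, as the Hox genes did. All 9 genes of the Pbx, Meis and Pknox cofactors, which bind DNA together with Hox proteins, had H3K4me3 in both compartments, and H3K27me3 was added at 3 in crypts (Meis1, Meis2 and Pknox2) and at 4 in villi, with Meis3. Of 8 ParaHox, caudal and Evx genes, 5 had H3K27me3 in both, namely Pdx1 and Gsx1, which had H3K4me3 as well, and Gsx2, Evx1 and Evx2, which had none. Cdx1 and Cdx2, caudal genes that specify intestinal epithelium, had H3K4me3 without H3K27me3 in both. Of the 24 protein-coding genes nearest to the clusters, 3 on each side, 19 had H3K4me3 in crypts and 20 in villi, against 57.7% and 57.9% of all genes, and 4 and 5 had H3K27me3, against 13.1% and 16.1%. Among the latter were Evx1 and Evx2, homeobox genes next to Hoxa13 and Hoxd13.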

How the data were processed

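The authors aligned read pairs of mouse chromatin with a Drosophila spike-in to mm10 and dm6 with Bowtie 1.1.2, removed duplicates and called peaks with MACS2 2.1.1, and the submitters' processing notes also list deepTools 3.1. The deposited lists give for each peak a −log10 p-value from the MACS2 2.1.1 peak calling, 10.0 or more in each list, not scaled by the spike-in. The score was taken as a p-value, since the methods give a p-value cut-off, 10.0 on this scale, and the lowest score lies at it. The methods describe peak calling for 4 marks, not for H3K9me2, whose lists look alike. Peak names are not numbered without breaks, and the step that removed peaks is not given in the sources used here. Scores served only to rank peaks within a list.

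Start sites of protein-coding transcripts, and of all transcripts for RNA genes, came from GENCODE M21 on GRCm38, the assembly that mm10 names, and each was widened by 1 kb. Overlaps, gaps, Jaccard indices, base composition and CpG counts were computed with Python 3.11.15 and NumPy 2.4.6, with intervals from SciPy 1.17.1 and figures from Matplotlib 3.10.9, and the code for overlaps was tested on simulated data. Spans run from the first to the last member of a cluster in the annotation. Masked bases are the lower-case bases of the RefSeq genome sequence, and promoters and microRNAs came from RefSeq tables for GRCm38.p6.

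Samples were grouped by the compartment and antibody of their labels. Genes named in full are those whose H3K27me3 and H3K4me3 combination differed between compartments, those in or next to a gap of 1 kb or more and the ends of each cluster, with other members as counts and ranges, and fixed lists of cofactors, relatives, neighbours and RNA genes. Some other members are named for their low or high values, chosen after these were seen. The members and lists were chosen with earlier results of these data known. As each group had 1 library, crypts and villi were compared without a test, and depth is unknown. Alternatives covered the window, the start site used, the overlap, the score, merging of peaks and the span. The 2 inputs were not used here.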

Additional observations from a re-analysis of the deposited data

How the results depend on the processing

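Of 87 recomputed values for member counts and totals over the 4 clusters, 58 stayed within the limits set, 1.5 times for a count and the 95% binomial interval over bases for a share, and 29 moved. The top 50% of each list by score moved the most. With it, H3K4me3 and the pair of H3K27me3 and H3K4me3 were found at 0 members in crypts and in villi, H3K4me1 at 4 and 9, H3K27me3 covered 79.8% and 90.1% of the spans, H3K4me3 covered 0% of the spans and of the gaps in both, and the H3K27me3 Jaccard index was 0.843. With peaks under 1 kb apart merged, H3K27me3 covered 87.8% in crypts and 95.1% in villi, in 16 and 12 gaps, 23653 bp of gaps in villi, H3K4me3 covered 3.93% and 3.55% of the spans (3.72% and 3.46% unmerged) and 0% and 1.86% of the gaps, and the Jaccard indices were 0.904 for H3K27me3 and 0.596 for H3K4me3. With spans extended by 5 kb on each side, coverage was 83.8% and 92.3% for H3K27me3 and 3.59% and 3.37% for H3K4me3, and 3.22% of the villi gaps was under H3K4me3. The cause of these shifts was not tested. Windows of 500 bp or 2 kb, 1 start site per gene or an overlap of 200 bp left H3K27me3 at 37 or 38 members in both compartments. Of 130 values for single clusters, 60 stayed within the same limits and 70 moved. Bases of a peak are not independent, so the binomial interval is narrow. No Jaccard index of H3K4me3 was obtained with the top 50%, since no peak was left. No paired analysis was possible because each compartment and mark had 1 library.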

Other observations

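Outside the members, the H3K27me3 cover ran past the ends of the clusters. Peaks no more than 5000 bp apart continued beyond the Hoxd13 end of Hoxd for 23282 bp in crypts and 26210 bp in villi, over Evx2, and beyond the Hoxd1 end for 3846 and 12795 bp. Beyond Hoxb1 such a chain reached 36 bp in crypts and 16113 bp in villi, and beyond the Hoxb13 end 31950 and 43083 bp. Beyond the Hoxa13 end it reached 20704 bp in crypts and 68083 bp in villi, which takes in Evx1, and beyond the Hoxc13 end 15094 and 25962 bp. At the Hoxc4 end the values were close, 35105 and 35140 bp, and at the Hoxa2 end the chain was longer in crypts, 17784 bp against 13088 in villi.

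H3K4me1 peaks of the clusters also lay away from start sites. In Hoxc, which had no H3K4me1 at a start site in crypts, 3 such peaks were found in crypts, and the same 3 places were marked in villi. The one between Hoxc11 and Hoxc10 (chr15:102959354-102960791) ranked 2853 of 55341 in villi, the highest rank of a H3K4me1 peak in the clusters, and in crypts the highest, 3876 of 54642, was a peak inside the annotated Hoxa3 gene (chr6:52199216-52201784). The H3K4me3 peak between Hoxb13 and Hoxb9 (chr11:96250949-96253143 in crypts), 2195 bp long there and 1579 in villi, lay at the start of the long non-coding RNA gene Gm53 and was under H3K27me3 over 100% in both.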
